A study of Mus musculus with 21 samples.

Results

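Genes of DNA replication and nucleotide supply were followed here in sorted mouse bone marrow progenitors with and without a Stag2 knockout. The list was given by name and holds 43 genes, all of which are among the 30733 genes of the deposited count table. They are the licensing factors that mark origins, the activators of the helicase, the polymerases and primase, the clamp and its loader, the single-strand binding proteins, enzymes that finish the lagging strand, enzymes that supply nucleotides, factors that repack the new DNA, and E2f1. Bulk RNA was sequenced in 21 libraries of 3 populations. LSK cells are stem and multipotent progenitors (4 wild-type libraries, labelled WT, and 3 Stag2 knockout libraries, labelled KO). GMP are granulocyte and monocyte progenitors (3 WT and 4 KO). CFU-E are erythroid progenitors (3 WT and 4 KO). The genotype is given as Stag2 KO or WT, and no label names the allele, the driver of the deletion or the age of the animals. Stag2 encodes a subunit of cohesin, the ring complex that holds sister chromatids together from replication on.

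A chromosome is copied in steps. Before S phase the origin recognition complex, Cdc6 and Cdt1 load the MCM helicase on origins. GINS, Mcm10 and others then switch it on, and primase, the polymerases and the clamp copy both strands, while ribonucleotide reductase and its partners keep up the supply of deoxynucleotides. E2F factors, held back by RB proteins outside the cycle, activate many of these genes at the entry to S phase, and both GMP and CFU-E are known as cycling progenitors. In erythroid progenitors S phase is known to be fast and tied to the start of terminal differentiation.

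GMP and CFU-E libraries were tagged at transcript 3′ ends, and LSK libraries were amplified over whole transcripts. Levels are CPM, counts relative to the library's total, scaled by TMM factors within each of these 2 kinds of library. LSK levels were therefore not tested against the others, and levels of different genes were not compared, since CPM is not per length. Total counts were 3732769 to 4401993 in GMP WT, 1250683 to 3471881 in GMP KO, 3654667 to 5550165 in CFU-E and 22813333 to 32196233 in LSK libraries. All 9 GMP markers were lower and all 12 CFU-E markers higher in WT CFU-E than in WT GMP. The 9 GMP markers summed to 37492 to 63130 CPM in WT GMP and 57.6 to 126 CPM in WT CFU-E. All 9 mature neutrophil markers were lower in WT CFU-E too, so these calls do not tell GMP from mature neutrophils. None of the 10 LSK markers was at 0 throughout the LSK libraries. The same held in CFU-E KO, so this does not identify the LSK population. In LSK WT the 10 LSK markers summed to 1230 to 1851 CPM. In libraries of the other kind they summed to 84.2 to 97.7 CPM in WT GMP and 200 to 208 CPM in WT CFU-E. The 9 GMP markers summed to 10960 to 18604 CPM in LSK WT. Sums of different lists are of different genes and are not compared. Transcripts of mature neutrophils were abundant in GMP, with the 9 markers summing to 176138 to 238038 CPM in WT and 76759 to 135584 CPM in KO, against 264 to 518 CPM in WT CFU-E.

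Stag2 checks the labels. In LSK it stood at 187, 171, 148 and 158 CPM in WT and at 79.9, 67.8 and 69.2 CPM in KO (log2 fold change -1.20 ± 0.13, adjusted p = 0.027). CFU-E libraries held 122, 113 and 146 CPM in WT and 65.5, 37.5, 61.0 and 68.4 CPM in KO (-1.14 ± 0.20, adjusted p = 0.0143). In GMP the values overlapped, at 226, 165 and 113 CPM in WT and 101, 109.7, 88.6 and 154 CPM in KO (-0.47 ± 0.27, adjusted p = 0.36). The GMP libraries are therefore called below by their labels only. GMP and CFU-E libraries are of the same 3′ kind, and the cause of the overlap in GMP was not tested.

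Replication genes were unevenly higher in WT CFU-E than in WT GMP. Of the 43 members, 15 were higher in CFU-E, 1 was lower (Rfc2) and 27 did not pass the test (edgeR's quasi-likelihood test, Benjamini-Hochberg adjusted p under 0.05 over all 10329 genes tested). Of all genes tested, 25% were called higher, 27.3% lower and 52.4% in either direction, against 37.2% of the members. The log2 fold change was above 0 for 37 members and its median was 0.41. Of all genes 51.2% were above 0, at a median of 0.032. Libraries of the 2 populations did not overlap for 21 members on the higher side and 2, Rfc2 and Rpa3, on the lower side, where 31.4% and 28.8% of all genes did not overlap. Summed over the 43 genes, WT GMP held 8853, 8462 and 9697 CPM and WT CFU-E 11256, 11962 and 12578 CPM, so that every CFU-E library lay above every GMP library. Between 1951 and 3027 CPM of each of these sums came from Lig1 alone.

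**Figure D1:**
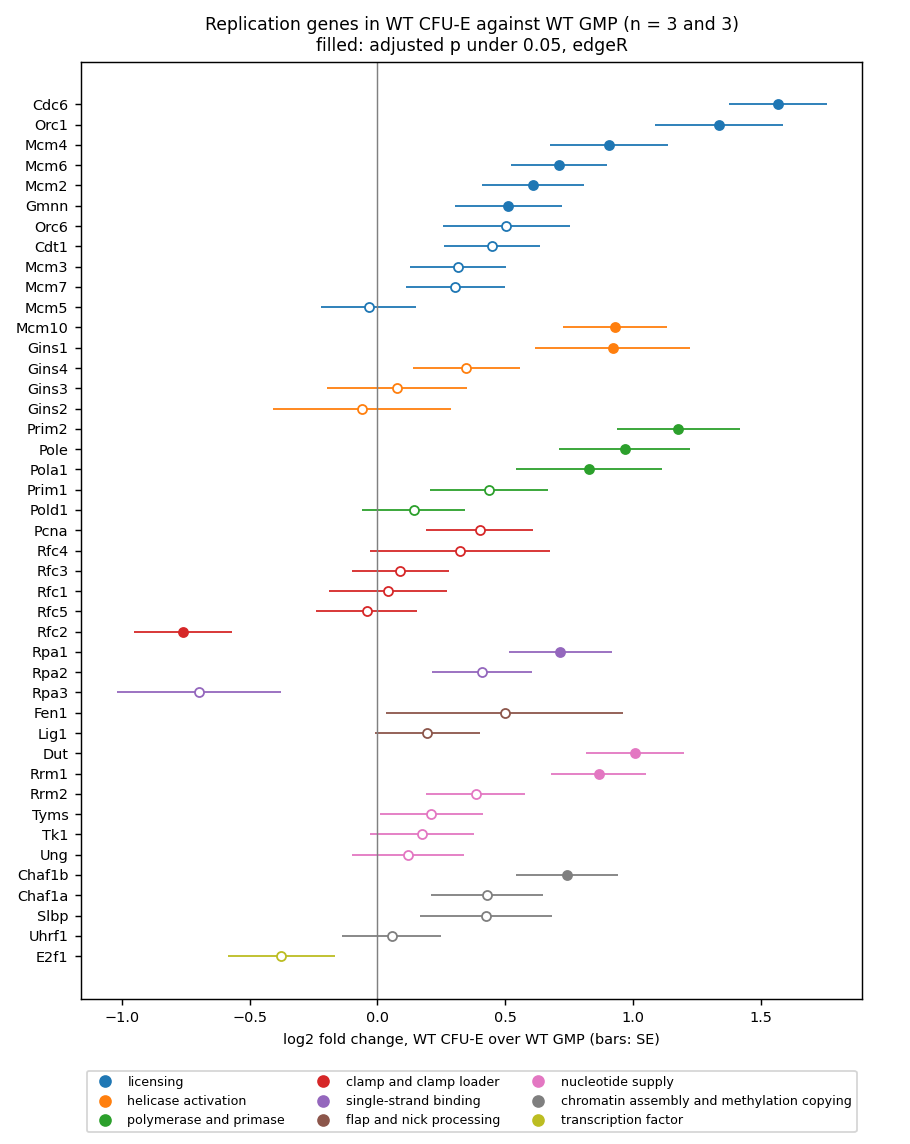
Log2 fold change of each of the 43 replication genes in WT CFU-E over WT GMP (x axis), grouped and coloured by role, with bars of 1 standard error and filled points where the adjusted p was under 0.05. Licensing and polymerase genes hold 9 of the 15 members higher in CFU-E, with Cdc6 at 1.57, and Rfc2 at -0.76 is the member called lower.

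The size of these differences depends on the scaling. With counts scaled by the total only, 34 members were higher and none was lower, the members' median was 0.87 and the median of all genes 0.49, and all genes split into 4525 higher and 2058 lower in place of 2587 and 2822. The neutrophil transcripts above move with the population, and their part in the members' lower share of GMP counts was not tested. With the TMM factors taken without the 100 most abundant genes, 14 members were higher and 1 lower, at a median of 0.35. In bulk samples, fewer cells of a type and less RNA per cell cannot be told apart.

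Promoters of 5 members are shown because they bear on what the list shares: E2F-type letters stand near the start of many replication genes. A promoter entry (RefSeq, GRCm38.p6, 250 bases before to 50 after the start) was found for 35 of the 43 members, and TTTCCCGC, TTTGGCGC or TTTCGCGC on either strand for 13 of these 35 (37.1%). The 3 words can overlap each other on opposite strands, as they do in Mcm5 and Mcm6. Such a word was held by 2.12% of the 27025 genes with an entry, and by 36.4% of 33 further replication genes that were not members. CCAAT, the NF-Y box, was found in 62.9% of the members and 41.1% of all genes, and TTTGAA, the CHR-type word of late cell cycle genes, in 8.57% and 20.2%, both strands searched. Members' windows were also richer in G and C, with a median of 63.0% against 52.8% over all genes, and the shares above were not matched for it. In the windows below, written 5′ to 3′ along the gene, capitals mark the E2F-type word. Cdc6 lies at chr11:98907901-98908200, plus strand, Orc1 at chr4:108579204-108579503, plus strand, Pola1 at chrX:93632106-93632405, minus strand and Lig1 at chr7:13278576-13278875, plus strand. Dut, at chr2:125247265-125247564, plus strand, is shown as a member without one of these words.
Cdc6: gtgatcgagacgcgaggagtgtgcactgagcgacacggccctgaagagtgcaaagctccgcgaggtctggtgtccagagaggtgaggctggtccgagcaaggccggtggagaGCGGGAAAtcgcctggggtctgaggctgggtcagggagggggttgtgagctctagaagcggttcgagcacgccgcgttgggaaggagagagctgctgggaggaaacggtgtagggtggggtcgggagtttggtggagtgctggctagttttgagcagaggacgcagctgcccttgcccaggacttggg
Orc1: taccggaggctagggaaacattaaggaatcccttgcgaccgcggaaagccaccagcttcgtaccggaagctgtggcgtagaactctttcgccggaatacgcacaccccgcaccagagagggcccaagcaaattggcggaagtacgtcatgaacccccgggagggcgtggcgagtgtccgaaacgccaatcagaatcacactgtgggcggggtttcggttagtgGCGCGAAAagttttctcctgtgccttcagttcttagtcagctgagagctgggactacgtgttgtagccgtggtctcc
Pola1: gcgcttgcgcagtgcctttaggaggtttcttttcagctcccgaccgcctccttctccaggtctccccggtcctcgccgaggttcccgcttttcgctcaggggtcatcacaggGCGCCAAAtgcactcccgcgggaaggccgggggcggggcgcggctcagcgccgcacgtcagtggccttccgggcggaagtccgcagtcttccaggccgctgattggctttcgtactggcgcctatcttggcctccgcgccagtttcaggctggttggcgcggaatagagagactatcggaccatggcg
Lig1: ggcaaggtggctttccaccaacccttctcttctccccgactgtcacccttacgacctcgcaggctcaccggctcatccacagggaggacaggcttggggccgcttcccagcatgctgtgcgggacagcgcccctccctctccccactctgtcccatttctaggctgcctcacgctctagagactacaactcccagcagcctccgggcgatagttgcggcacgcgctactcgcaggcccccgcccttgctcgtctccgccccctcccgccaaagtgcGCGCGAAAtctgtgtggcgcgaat
Dut: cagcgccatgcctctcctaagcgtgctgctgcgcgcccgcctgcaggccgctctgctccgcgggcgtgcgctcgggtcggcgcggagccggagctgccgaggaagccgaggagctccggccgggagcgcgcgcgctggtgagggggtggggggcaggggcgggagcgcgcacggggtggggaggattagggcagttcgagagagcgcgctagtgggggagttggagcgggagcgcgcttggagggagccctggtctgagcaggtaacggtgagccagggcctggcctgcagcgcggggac

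Members with and without the word were both among those higher in CFU-E. Of the 13 members with an E2F-type word 4 were higher (Cdc6, Orc1, Mcm6 and Pola1), at a median log2 fold change of 0.30 over the 13. Of the 22 without it 6 were higher, at a median of 0.42. Both counts are near the 25% of all genes called higher. These are counts of matching letters and not of bound sites, and the difference between the 2 groups of genes was not tested.

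Among the licensing genes 6 of 11 were higher in CFU-E and none was lower. This and the counts by role below stand beside 25% of all genes higher and 27.3% lower. Over all genes, 51.2% had a log2 fold change above 0. Cdc6, which brings the MCM ring to the origin recognition complex, stood at 83.5, 91.8 and 105 CPM in GMP and 298, 284 and 269.7 CPM in CFU-E. This was 2.96-fold, the largest fold change of the 43 (log2 fold change 1.57 ± 0.19, adjusted p = 6.66e-07). Orc1, the largest subunit of the recognition complex and the one that comes and goes with the cycle, was at 18.8, 13.9 and 14 CPM in GMP and 44.9, 39.5 and 37.3 CPM in CFU-E. Every CFU-E library lay above every GMP library, and the log2 fold change was 1.34 ± 0.25, adjusted p = 0.000143. Orc6, a smaller subunit of the same complex, overlapped at 27.5, 43.9 and 37.7 CPM in GMP and 65.2, 55.3 and 37.1 CPM in CFU-E (0.50 ± 0.25, adjusted p = 0.0965).

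Of the 6 subunits of the MCM ring 3 were higher in CFU-E and 3 were not called. Mcm4 stood at 109, 178 and 145 CPM in GMP and 375, 229 and 225 CPM in CFU-E (0.91 ± 0.23, adjusted p = 0.00243). Its first CFU-E library was well above the other two, and even these exceeded each GMP library. Mcm6 was at 273, 351 and 351 CPM in GMP and at a narrow 566, 523 and 546 CPM in CFU-E (0.71 ± 0.19, adjusted p = 0.00331). Mcm2 rose from 242, 285 and 358 CPM to 423, 517 and 439 CPM (0.61 ± 0.20, adjusted p = 0.014), a call lost without CFU-E WT 2 or GMP WT 2. Mcm3, Mcm7 and Mcm5 missed the threshold, with log2 fold changes of 0.32 ± 0.19, 0.31 ± 0.19 and -0.034 ± 0.19. Mcm5 stood at 448, 444 and 549.5 CPM in GMP and 451, 495 and 496 CPM in CFU-E. Differences between subunits of the ring were not tested against each other.

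Cdt1, the partner of Cdc6 in loading, and geminin (Gmnn), its inhibitor, stood on either side of the threshold. Cdt1 was at 231, 239 and 295 CPM in GMP and 353, 379 and 337 CPM in CFU-E, without overlap and yet not called (0.45 ± 0.19, adjusted p = 0.0521). Gmnn was at 106, 115 and 77.9 CPM in GMP and 167, 143 and 128 CPM in CFU-E and was called (0.51 ± 0.21, adjusted p = 0.0463). The 2 genes thus differed by similar amounts, and the call of Gmnn was lost in 9 of 18 alternative settings.

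**Figure D2:**
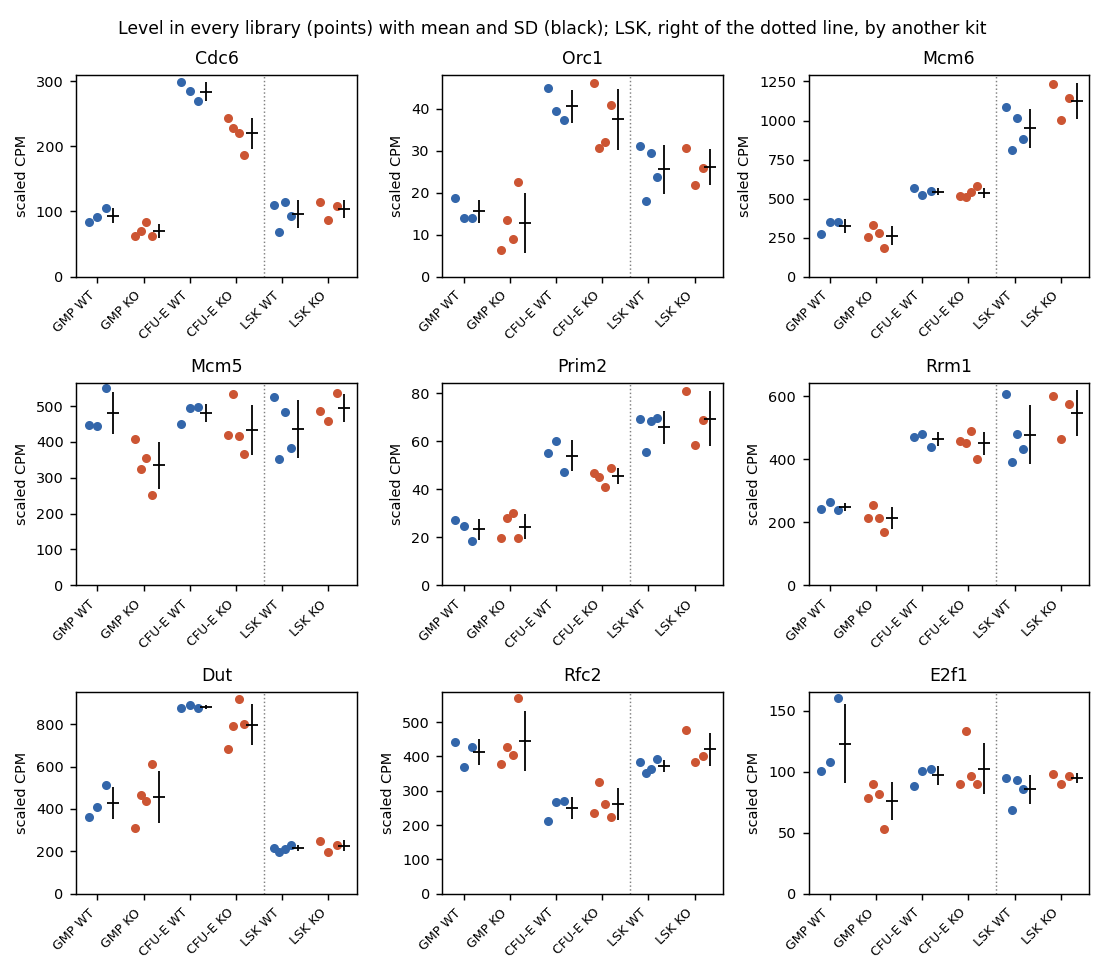
Scaled CPM (y axis, from 0) of 9 replication genes in every library, in order of replicate number from the left within a group, with the mean and SD in black. Blue points are WT and red points KO, and LSK libraries, of the other kit, stand right of the dotted line. In Cdc6, Orc1, Mcm6, Prim2, Rrm1 and Dut all CFU-E libraries lie above all GMP libraries, in Rfc2 below them, and WT and KO overlap within most populations.

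Helicase activation gave 2 of 5 members higher. Mcm10, which helps the loaded ring to open DNA, stood at 102, 72.0 and 77.3 CPM in GMP and 163, 168 and 162 CPM in CFU-E (0.93 ± 0.20, adjusted p = 0.000673). The 3 CFU-E libraries agreed closely and all lay above the highest GMP library. GINS is a ring companion of 4 subunits, and Gins1 was at 12.2, 13.9 and 6.39 CPM in GMP and 22.2, 18.7 and 22.5 CPM in CFU-E (0.92 ± 0.30, adjusted p = 0.0151). That call rests on 21 to 46 reads a library in GMP and was lost without GMP WT 3. Gins4 was at 64.2, 60.5 and 54.8 CPM and 72.3, 90.9 and 70.9 CPM, without overlap but not called (0.35 ± 0.21, adjusted p = 0.17). Gins3 and Gins2 had log2 fold changes of 0.075 ± 0.27 and -0.06 ± 0.35, neither called.

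Of the polymerase and primase genes 3 of 5 were higher, and all 5 had a log2 fold change above 0. Prim2, the regulatory subunit of primase, was at 26.9, 24.4 and 18.3 CPM in GMP and 54.9, 60.1 and 47.0 CPM in CFU-E (2.26-fold, log2 1.18 ± 0.24, adjusted p = 0.000325). Prim1, the subunit that makes the primer, was at 52.8, 39.0 and 33.8 CPM and 54.9, 52.0 and 69.2 CPM and overlapped (0.44 ± 0.23, adjusted p = 0.118). Pole, the catalytic subunit of the leading-strand polymerase epsilon, was at 22.7, 15.5 and 18.3 CPM in GMP and 32.3, 37.0 and 44.98 CPM in CFU-E (0.97 ± 0.25, adjusted p = 0.00321). For Prim2 and Pole the 2 populations did not overlap.

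Pola1, the catalytic subunit of polymerase alpha that extends the primers, was at 254, 135 and 101 CPM in GMP and 282, 216 and 408 CPM in CFU-E. Here the populations overlapped, and the call (0.83 ± 0.29, adjusted p = 0.02) depended on single libraries. On flow cell A alone, which leaves out CFU-E WT 3, the log2 fold change was 0.57 with an adjusted p of 0.125. With the flow cell as a term it was 0.56 with an adjusted p of 0.134, and the call was also lost without GMP WT 2 or GMP WT 3. Pold1, the catalytic subunit of polymerase delta, had a log2 fold change of 0.14 ± 0.20 and was not called.

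Of the genes of the clamp and its loader 1 of 6 was called, and it was lower. Rfc2, a small subunit of the loader that is also shared by its checkpoint form, was at 442, 370.0 and 428 CPM in GMP and 213, 267 and 271 CPM in CFU-E. Each CFU-E library lay below each GMP library (-0.76 ± 0.19, adjusted p = 0.00239). Without scaling beyond the total the log2 fold change was -0.31 with an adjusted p of 0.148. Pcna, the sliding clamp, was at 185, 137 and 123 CPM and 194, 227 and 184 CPM, and its populations overlapped (0.40 ± 0.21, adjusted p = 0.116). Rfc4 was at 6.08, 5.62 and 6.69 CPM and 10.3, 6.52 and 6.92 CPM on 17 to 49 reads a library (0.32 ± 0.35, adjusted p = 0.461). The log2 fold changes of Rfc3, Rfc1 and Rfc5 were 0.09 ± 0.19, 0.042 ± 0.23 and -0.041 ± 0.20, none called.

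Replication protein A coats the single strands that the helicase exposes, and 1 of its 3 subunits was called. Rpa1, the largest, was at 126, 117 and 147 CPM in GMP and 198, 265 and 192 CPM in CFU-E (0.72 ± 0.20, adjusted p = 0.00542), a call lost without CFU-E WT 2. Rpa2 was at 479, 554 and 676 CPM and 682, 804 and 839 CPM (0.41 ± 0.20, adjusted p = 0.0855). Rpa3, the smallest, stood at 13.5, 17.2 and 11.3 CPM and 9.02, 10.9 and 6.18 CPM (-0.70 ± 0.32, adjusted p = 0.0742). The populations did not overlap for any of these subunits, and 2 of them missed the threshold.

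Neither gene of Okazaki fragment maturation was called. Lig1, which seals the nicks, was at 2191, 1951 and 2296 CPM in GMP and 2063, 2478 and 3027 CPM in CFU-E (0.20 ± 0.21, adjusted p = 0.448). Fen1, which cuts the displaced flap, was at 2.64, 3.30 and 6.39 CPM and 7.55, 7.40 and 2.47 CPM (0.50 ± 0.46, adjusted p = 0.383). At 10 to 42 reads a library, Fen1 had the widest standard error of the members in this comparison, and the third CFU-E library lay far below the other two.

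Nucleotide supply gave 2 of 6 members higher, near the 25% of all genes, and all 6 had a log2 fold change above 0. Dut, which removes dUTP and so keeps uracil out of DNA, was at 363, 410.0 and 513 CPM in GMP and at 877, 892 and 876 CPM in CFU-E. The CFU-E libraries were almost level and far above each GMP library (2.01-fold, log2 1.01 ± 0.19, adjusted p = 0.000171). Rrm1, the large subunit of ribonucleotide reductase, was at 242, 263 and 239 CPM and 471, 481 and 439 CPM (0.87 ± 0.19, adjusted p = 0.000521). Rrm2, the small subunit that limits the enzyme in the cycle, was at 160.1, 139 and 171 CPM and 229, 222 and 179 CPM, without overlap but not called (0.39 ± 0.19, adjusted p = 0.103). Tyms, which makes thymidylate, and Tk1, which salvages thymidine, had log2 fold changes of 0.21 ± 0.20 and 0.17 ± 0.20, neither called. Ung, which excises uracil from DNA, was counted in this role although it makes no nucleotide (0.12 ± 0.22, not called).

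Of the 4 factors that restore chromatin on new DNA, 1 was higher, no more than the 25% of all genes. Chaf1b, a subunit of the histone chaperone CAF-1, was at 67.9, 68.4 and 86.4 CPM in GMP and 115, 128 and 138 CPM in CFU-E (0.74 ± 0.20, adjusted p = 0.00356). Chaf1a, its partner, overlapped at 88.8, 59.1 and 76.1 CPM and 86.2, 96.4 and 129 CPM (0.43 ± 0.22, adjusted p = 0.11). Slbp, which binds the stem-loop of histone mRNAs, was at 28.3, 20.5 and 22.2 CPM and 30.6, 25.9 and 42.3 CPM (0.42 ± 0.26, adjusted p = 0.178). Uhrf1, which reads half-methylated DNA for the maintenance methylase, had a log2 fold change of 0.055 ± 0.19 and was not called. E2f1, an activator of the S phase programme, was at 101, 108 and 160.3 CPM in GMP and 88.1, 101 and 102 CPM in CFU-E and was not called (-0.38 ± 0.21, adjusted p = 0.141).

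Of the 16 calls 10 were kept in all 18 alternative settings, namely Cdc6, Orc1, Mcm4, Mcm6, Mcm10, Prim2, Pole, Dut, Rrm1 and Chaf1b. The other six are Gins1, Gmnn, Mcm2, Pola1, Rfc2 and Rpa1, each lost in the settings given above, or for Gmnn in 9 of them. Among the 18 settings, flow cell A alone and leaving out CFU-E WT 3 are the same fit. The median standard error of a member's log2 fold change was 0.21.

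Further genes of the same processes, listed apart from the members, were mixed too. Of 36 other replication genes 10 were higher in CFU-E and 4 lower, at a median log2 fold change of 0.37. This and the counts of the lists below stand beside 25% of all genes higher and 27.3% lower, and for these 36 genes the share higher was near that background. Orc5, another subunit of the recognition complex, had 6.43 ± 1.95 CPM in GMP and 59.1 ± 0.766 CPM in CFU-E (mean ± SD, n = 3 each, log2 fold change 3.14 ± 0.28, adjusted p = 6.23e-09 by edgeR). Orc2 had 64.7 ± 18.8 CPM and 222 ± 6.27 CPM (1.73 ± 0.22, adjusted p = 1.5e-06 by edgeR). Pole3, a histone-fold subunit of polymerase epsilon, had 169 ± 9.68 CPM and 470.2 ± 38.1 CPM (1.43 ± 0.19, adjusted p = 1.94e-06 by edgeR). The 4 that were lower were Pold4, the smallest subunit of polymerase delta (log2 fold change -2.19), Cdc45, the companion of MCM and GINS in the active helicase (-0.66), the histone chaperone Asf1b (-0.53) and 2810417H13Rik, a partner of the clamp (-1.06). The recognition complex thus held 3 called subunits, and the active helicase held called genes in both directions.

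Of 22 other nucleotide supply genes 10 were higher and 4 lower, at a median of 0.56. Mthfd1, which interconverts the folate forms that purine synthesis needs, had 49.3 ± 14.2 CPM in GMP and 348 ± 34.6 CPM in CFU-E (2.79 ± 0.23, adjusted p = 1.82e-09 by edgeR, n = 3 each). Cad, which starts pyrimidine synthesis, had 62.7 ± 19.5 CPM and 246 ± 20.3 CPM (1.94 ± 0.22, adjusted p = 2.48e-07 by edgeR). Shmt1, the cytosolic enzyme that feeds the folate pool from serine, went down from 85.4 ± 6.11 CPM to 23.8 ± 0.556 CPM (-1.88 ± 0.21, adjusted p = 1.82e-07 by edgeR). The others that were lower were Nme2, Rrm2b and Dctpp1.

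Of 12 genes of the E2F and RB families 3 were higher and 2 lower. E2f4, which acts mostly as a repressor in resting cells and is known to be abundant in erythroid cells, had 28.6 ± 10.4 CPM in GMP and 95.8 ± 18.1 CPM in CFU-E (1.72 ± 0.26, adjusted p = 9.5e-06 by edgeR, n = 3 each). Its partner Tfdp2 had 28.3 ± 7.17 CPM and 76.2 ± 3.87 CPM (1.38 ± 0.23, adjusted p = 3.76e-05 by edgeR). E2f7, an atypical repressor, went down from 17.9 ± 3.36 CPM to 7.76 ± 1.68 CPM (-1.25 ± 0.30, adjusted p = 0.0016 by edgeR). E2f6 was also higher and E2f2 also lower.

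Of the 10 genes that tie cohesion to the fork 9 were tested and 4 were higher, none lower. Wdhd1, the fork protein AND-1, had 121 ± 25.5 CPM in GMP and 259 ± 48.9 CPM in CFU-E (1.05 ± 0.21, adjusted p = 0.000346 by edgeR, n = 3 each), and Timeless, Tipin and Dscc1 were the others. Wdhd1, Timeless and Tipin are also counted among the other replication genes. Of 20 G2/M genes, which act after S phase, 2 were higher (Ccnb1 and Hmmr) and 2 lower (Kif23 and Ube2c), at a median of 0.0084. Their summed level was 3791, 3760.0 and 3210.0 CPM in WT GMP and 3619, 3577 and 3617 CPM in WT CFU-E, so that the populations overlapped, while the sums of the replication members did not.

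**Figure D3:**
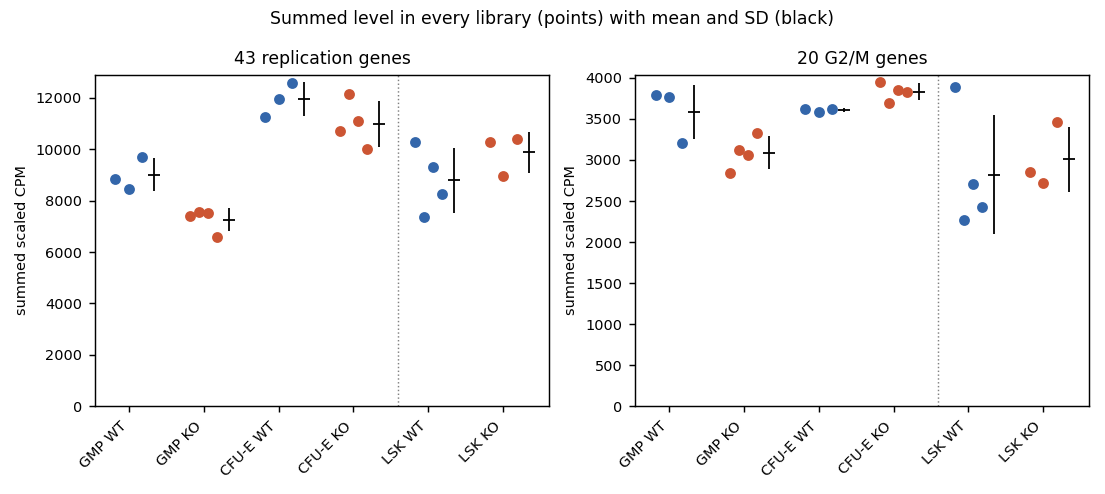
Summed scaled CPM (y axes, from 0) of the 43 replication genes (left) and of 20 G2/M genes (right) in every library, with the mean and SD in black, blue for WT and red for KO. WT CFU-E lie above WT GMP for the replication genes and overlap them for the G2/M genes. GMP libraries labelled KO lie below GMP WT for the replication genes, and LSK libraries, right of the dotted line, are of another kit.

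In CFU-E, no replication gene was called between KO and WT. The fit held the flow cell as a term. edgeR's quasi-likelihood test called 0 of 43 members, DESeq2 0 and limma-voom 0, while edgeR called 1.06% of all 10170 genes. An unadjusted p under 0.05 was held by 4, 3 and 3 members, and by 9.82% of all genes in edgeR. The log2 fold change was below 0 for 29 members, at a median of -0.10 (all genes 0.0043), with a range of -0.47 to 0.64. Above 0 were 32.6% of the members and 50.7% of all genes. The median standard error of a member's log2 fold change was 0.16. KO libraries lay below all WT libraries for 6 members and above them for 1 (Tk1), where 5.52% and 6.12% of all genes did so.

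Chaf1a, the CAF-1 subunit, was at 86.2, 96.4 and 129 CPM in WT and 81.2, 93.6, 71.4 and 63.6 CPM in KO, with overlap (-0.47 ± 0.18, adjusted p = 0.344 by edgeR). Uhrf1 was at 96.7, 96.0 and 99.6 CPM in WT and 69.2, 92.8, 79.9 and 82.8 CPM in KO, without overlap but not called (-0.34 ± 0.15, adjusted p = 0.458). Rpa3 was at 9.02, 10.9 and 6.18 CPM and 12.8, 10.2, 13.4 and 12.2 CPM, with overlap (0.64 ± 0.28, adjusted p = 0.459). Cdc6, the member most above GMP, was at 298, 284 and 269.7 CPM in WT and 244, 228, 220.0 and 186 CPM in KO. Each KO library lay below each WT library, and the test was not passed (-0.30 ± 0.14, adjusted p = 0.49).

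The summed level of the members was 11256, 11962 and 12578 CPM in CFU-E WT and 10714, 12121, 11077 and 9999 CPM in CFU-E KO, with overlap. By role, the 5 polymerase and primase genes were all below 0, at a median of -0.17, and the 11 licensing genes had a median of -0.17 with 7 below 0. On flow cell B alone 1 member, Pola1, was called (log2 fold change -0.94, adjusted p = 0.0395 by edgeR), in a fit with a single WT library that is assumed to vary like the KO libraries. The members' median was -0.097 on flow cell A and -0.10 on flow cell B. Megakaryocyte markers were higher in CFU-E KO (Plek, Itgb3, Ppbp and Itga2b, 4 of 7, were called, and the 7 summed to 430 to 926 CPM against 112 to 255 CPM in WT), and their part in these values was not tested.

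In LSK, no member was called either, and the fold changes were small. edgeR called 0 of 43, DESeq2 0 and limma-voom 0, and no member had an unadjusted p under 0.05 by any of the 3. Of all 17664 genes 0.0793% were called and 7.88% had an unadjusted p under 0.05, both by edgeR. The log2 fold change was above 0 for 39 members, at a median of 0.12 (all genes 0.0045), with a range of -0.089 to 0.42. All 11 licensing genes were above 0. Over all genes 50.6% were above 0, against 90.7% of the members. KO libraries lay above all WT libraries for 2 members, where 3.26% of all genes did.

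The 3 members with the smallest p all act in helicase activation. Gins3 was at 39.2, 35.8, 38.6 and 31.8 CPM in WT and 49.2, 39.8 and 43.8 CPM in KO (0.29 ± 0.13, adjusted p = 0.665 by edgeR). Mcm10 was at 108, 57.2, 75.5 and 68.6 CPM in WT and 109, 92.1 and 110.0 CPM in KO, with overlap (0.42 ± 0.21, adjusted p = 0.695). Gins2 was at 97.4, 84.1, 92.0 and 94.1 CPM and 103, 103 and 107 CPM (0.19 ± 0.10, adjusted p = 0.763). For Gins3 and Gins2 the genotypes did not overlap, but the nearest libraries lay close together.

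In LSK, WT libraries 2 and 4 stood apart from the others. They were low in long members, such as Pole at 128, 38.3, 101 and 48.6 CPM in WT and 84.0, 95.5 and 106 CPM in KO. They were high in short ones, such as Rpa3 at 54.4, 87.9, 58.9 and 94.6 CPM in WT and 79.7, 60.9 and 67.9 CPM in KO. Across the 43 members, Spearman's rho between transcript length and a library's deviation from the mean of the 7 libraries was 0.72, -0.67, 0.37 and -0.65 in WT 1 to WT 4, and -0.066, 0.46 and 0.63 in KO 1 to KO 3. Over 9493 genes it was 0.43, -0.38, 0.25 and -0.46 in WT, and 0.053, 0.21 and 0.24 in KO. These are descriptions across genes that share a library, and genes are not independent replicates.

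**Figure D4:**
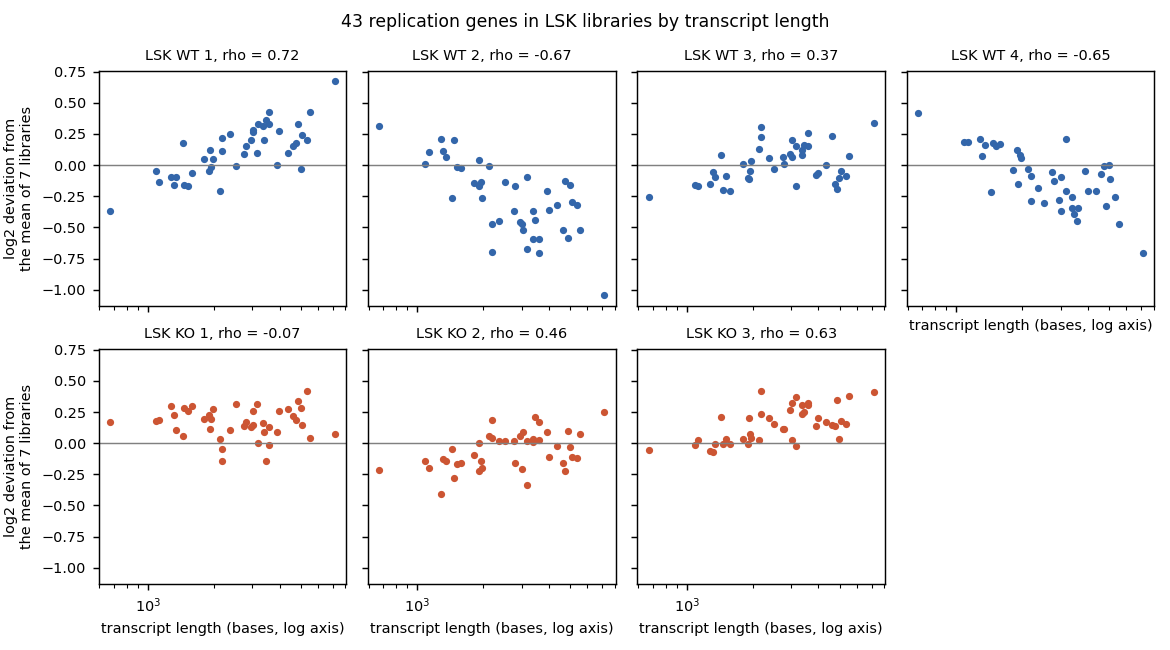
Log2 deviation of each of the 43 replication genes from its mean over the 7 LSK libraries (y axis) against the length of its longest coding transcript (x axis, log scale), a panel per library. Points fall with length in WT 2 (rho -0.67) and WT 4 (rho -0.65) and rise with length in WT 1 (rho 0.72) and KO 3 (rho 0.63).

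The same 2 libraries held more mature neutrophil transcripts (8672 and 4602 CPM over the 9 markers, against 383 and 1483 CPM in WT 1 and WT 3) and more B cell transcripts (336 and 249 CPM against 121 and 219.5 CPM over the 10 markers). In the KO libraries these sums were 722 to 1792 CPM and 76.4 to 158 CPM. Without WT 2 and WT 4 the members' median was 0.037 with 27 members above 0, and none was called. The part of transcript length and of other cells in the members' values was not tested beyond leaving out these libraries. The summed level of the members was 10257, 7352, 9304 and 8252 CPM in WT and 10283, 8941 and 10394 CPM in KO, with overlap.

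In GMP, no member was called between the libraries labelled KO and WT. edgeR called 0 of 43, DESeq2 0 and limma-voom 0, while edgeR called 1.45% of all 9969 genes. An unadjusted p under 0.05 was held by 5, 7 and 6 members, and by 17.9% of all genes in edgeR. The log2 fold change was below 0 for 30 members, at a median of -0.15 (all genes 0.015), with a range of -0.79 to 1.58. Above 0 were 30.2% of the members and 51.2% of all genes. Libraries labelled KO lay below all WT libraries for 12 members and above them for 1 (Slbp), where 11.2% and 5.54% of all genes did so. Summed over the members, WT held 8853, 8462 and 9697 CPM and KO 7382, 7538, 7504 and 6578 CPM, without overlap. Of these sums, Lig1 alone gave 1951 to 2296 CPM in WT and 953 to 1916 CPM in KO. All 11 licensing genes were below 0, at a median of -0.22, whereas 4 of the 5 polymerase and primase genes were above 0. The other replication genes listed apart from the members had a median of 0.093 in GMP, with 22 of 35 above 0 and none called, and their sums overlapped, at 8465, 7034 and 6202 CPM in WT and 6348, 6689, 6809 and 8038 CPM in KO.

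Slbp, the histone mRNA binding protein, was at 28.3, 20.5 and 22.2 CPM in WT and 35.7, 30.0, 37.9 and 157 CPM in the libraries labelled KO (1.58 ± 0.49, adjusted p = 0.127 by edgeR). Most of that difference came from KO 4, and without it the log2 fold change was 0.61 with an adjusted p of 0.243. Rpa2 was at 479, 554 and 676 CPM in WT and 299, 410.2, 385 and 158 CPM in KO, without overlap but not called (-0.79 ± 0.27, adjusted p = 0.162). E2f1 was at 101, 108 and 160.3 CPM in WT and 78.6, 89.7, 81.9 and 53.2 CPM in KO, also without overlap (-0.62 ± 0.24, adjusted p = 0.203). In all 3 genes KO 4 was the library farthest from WT.

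With no filter on low counts edgeR called 2 members, Slbp (log2 fold change 1.55, adjusted p = 5.13e-06) and Rpa2 (-0.81, adjusted p = 0.0363). Without scaling beyond the total the members' median was -0.0026 and the median of all genes 0.17, so the members' sign depends on the scaling while they stayed below the median of all genes. The libraries labelled KO were shallower than WT, and mature neutrophil markers were lower in them (Ltf was called, 1 of 9, and all 9 were below 0). After thinning every library to the shallowest one's total, 40 members were tested, none was called and their median was -0.16, with 27 below 0. The part of neutrophil transcripts in these values was not tested. Over 7682 genes, deviations also followed transcript length in single GMP libraries, with a Spearman's rho of 0.34 in KO 4, the library farthest from WT for Slbp, Rpa2 and E2f1, and of -0.38 in WT 3. Across the 43 members rho was 0.045 and 0.093 in these libraries, and over all GMP libraries it ran from -0.32 in WT 2 to 0.16 in KO 3. In CFU-E libraries rho across the members ran from -0.32 in KO 4 to 0.34 in WT 3. Over 7426 genes it ran there from -0.27 in KO 2 to 0.22 in WT 3.

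The knockout effects in CFU-E and GMP were then compared as an interaction with the flow cell as a term. edgeR called 0 of 43 members, DESeq2 0 and limma-voom 0, while edgeR called 0.445% of all 11006 genes. An unadjusted p under 0.05 was held by 6, 5 and 7 members, and by 13.6% of all genes in edgeR. The median difference, CFU-E minus GMP, was 0.16 (all genes 0.095), with 27 members (62.8%) and 55.7% of all genes above 0. It was -0.065 without scaling beyond the total (all genes -0.12), 0.05 without CFU-E WT 3, 0.061 without CFU-E KO 2 and 0.073 without GMP WT 3. The 36 other replication genes had a median difference of -0.14. Slbp had a difference of -1.78 ± 0.60, adjusted p = 0.234, Rpa3 of 1.05 ± 0.46, adjusted p = 0.325 and Tk1 of 0.62 ± 0.27, adjusted p = 0.326 by edgeR. For Slbp this again rests on GMP KO 4, without which it was -0.84 with an adjusted p of 0.305. Tk1 was at 45.7, 54.5 and 60.2 CPM in GMP WT and 42.9, 45.6, 45.3 and 33.7 CPM in GMP KO. In CFU-E it was at 62.3, 63.6 and 59.3 CPM in WT and 72.8, 83.4, 67.4 and 69.9 CPM in KO. With no filter on low counts Slbp was called (-1.80, adjusted p = 0.000272).

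**Figure D5:**
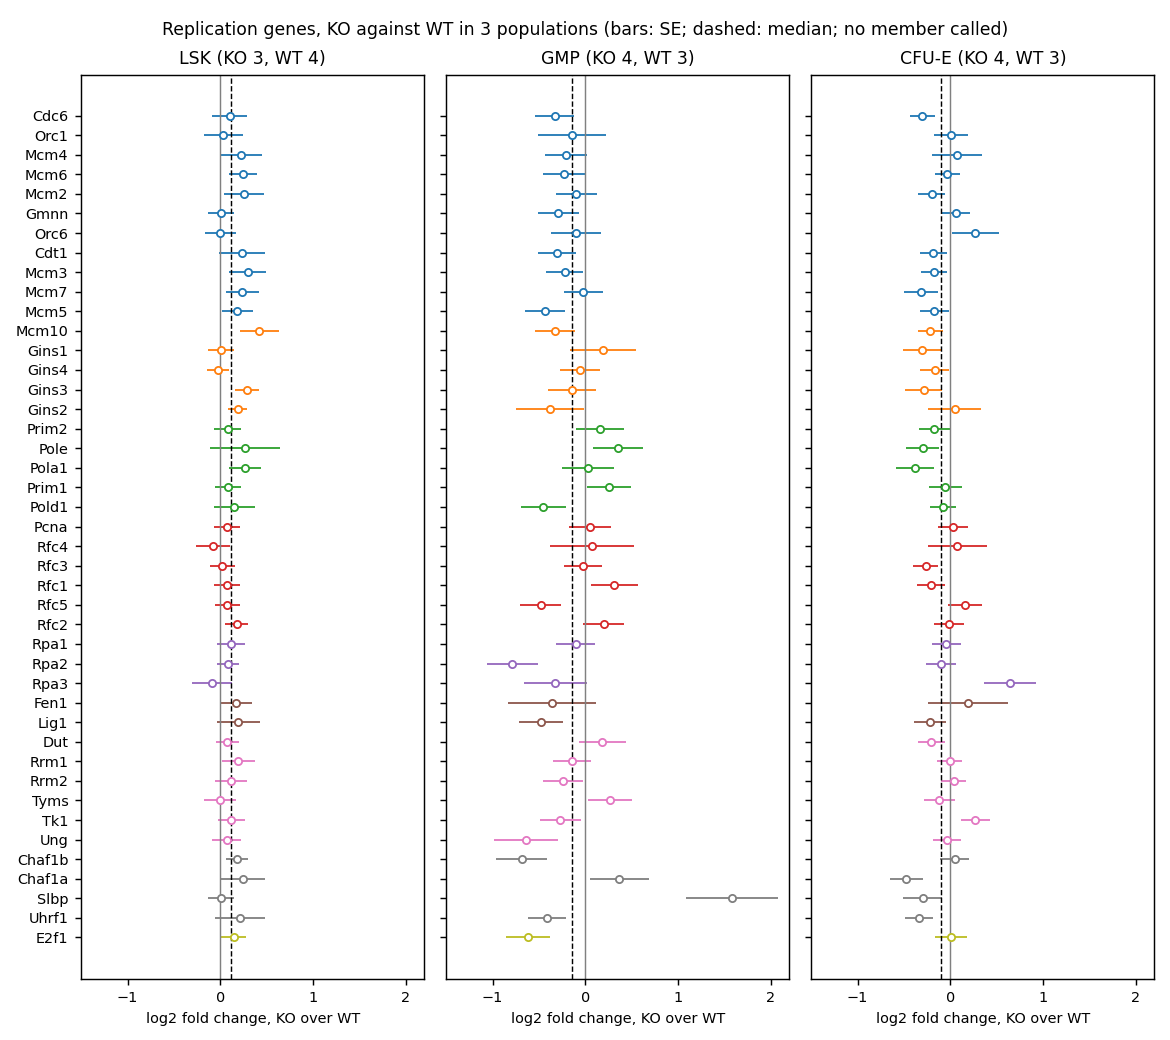
Log2 fold change of KO over WT for each of the 43 replication genes in LSK, GMP and CFU-E (x axes), in the order and colours of the plot for the WT populations, with bars of 1 standard error and the median as a dashed line. The medians are 0.12, -0.15 and -0.10, no member was called, and Slbp in GMP lies far to the right at 1.58.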

How the data were processed

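The deposited values are raw counts per gene for 21 libraries, not normalized. Per the submitters' processing notes, STAR 2.4, HTSeq 0.6.1 and DESeq2 were used with build mm9. Strand setting and annotation were not given in the sources used here. Overlapping and antisense genes are therefore uncertain. Every gene name was present, and 82 genes had no count. Replicates carry numbers but no statement that they are separate animals, so the p-values rest on a spread between libraries that can be technical in part. No 2 libraries of a group agreed within sampling noise (lowest chi-square per degree of freedom 4.03, genes with at least 20 counts).

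Members and gene lists were chosen with earlier results of these data known. Of the members, those named with values are the 3 with the smallest p per role between WT CFU-E and WT GMP, those called lower there, and the called or else the 3 with the smallest p in each knockout comparison. Gmnn, Mcm2, Mcm6, Mcm5, Cdt1, Orc6, Prim1, and Cdc6 in CFU-E KO, were added after their values were seen, as were Pold4, Cdc45, Asf1b, Tipin and other called genes named to complete a count of 5 or fewer, and the examples of the LSK length pattern. Of other lists, up to 3 called genes with the smallest adjusted p are named.

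Models were fitted in edgeR 4.0.16 (R 4.3.3) with filterByExpr (minimum count 10, minimum total 15), TMM, the quasi-likelihood test and Benjamini-Hochberg adjusted p under 0.05 over all genes tested. All 43 members passed the filter in each comparison. A standard error is the log2 fold change over the root of F. CFU-E and interaction fits had a flow cell term, read from the descriptions: GMP libraries, CFU-E KO 1, WT 1 and WT 2 are on A and the other CFU-E libraries on B. DESeq2 1.42.0 and limma-voom 3.58.1 were alternatives, and the scripts were tested on simulated data. Transcript lengths are of the longest coding transcript in GENCODE M21, and promoters were taken from RefSeq, where 8 members (Gmnn, Gins1, Gins2, Gins4, Rfc2, Mcm4, Pole and Prim2) had no match by symbol.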

Additional observations from a re-analysis of the deposited data

Results flagged for a closer look

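Of 99 groups of 4 libraries tested for a library far from the rest, 5 had one, and chance flags about 1 group in 20. Slbp stood at 156.9 CPM in GMP KO 4, where the other libraries labelled KO held 29.99 to 37.93 CPM. The summed level of the 43 members was 6578 CPM in the same library and 7382 to 7538 CPM in the others. In CFU-E KO 2, E2f1 stood at 133.5 CPM against 90.21 to 96.25 CPM, and Mcm4 at 132.5 CPM against 285.8 to 314.9 CPM. Prim2 stood at 55.54 CPM in LSK WT 2 against 68.45 to 69.7 CPM in the other WT libraries.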

How the results depend on the processing

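Between WT CFU-E and WT GMP the count of called members was 15 to 17 in 11 alternatives and 34 without scaling beyond the total. Without single libraries it ranged from 13 to 20. Flow cell A alone is the same fit as leaving out CFU-E WT 3 and is counted in both. The members' median log2 fold change, 0.41, was 0.36 with RLE factors and with DESeq2, 0.45 with upper quartile scaling, 0.869 without scaling, 0.352 with TMM lacking the 100 most abundant genes (chosen after seeing the data, as were the pairs of libraries left out), and 0.335 to 0.425 without single libraries. In no knockout comparison did leaving out a library give a called member (0 to 0). There the medians ranged over 0.0454 to 0.207 in LSK, -0.218 to -0.0889 in GMP, -0.143 to -0.0653 in CFU-E and 0.0495 to 0.219 for the interaction. In GMP, no filter gave 2 called members and no scaling a median of -0.00262. In CFU-E, flow cell B alone gave 1 called member and no flow cell term a median of -0.142. For the interaction, no filter gave 1 called member, and the median was -0.0645 without scaling, 0.0759 with upper quartile scaling, 0.0846 with a filter of 5 CPM and 0.0548 on flow cell A. The cause of these shifts was not tested.

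Over all genes, calls numbered 14 in LSK (342 by DESeq2, 38 without a filter, 0 with the block and 1 without WT 2 and WT 4), 145 in GMP (300 by DESeq2, 601 without a filter, 325 with the block and 60 thinned), 108 in CFU-E (182, 333 and 31 with block and flow cell, 234 without the flow cell term) and 49 for the interaction (134, 254, 83 and 81, and 2 on flow cell A). Without scaling, GMP calls split into 74 higher and 60 lower in place of 45 and 100, and interaction calls into 20 and 16 in place of 37 and 12.

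Whether replicate numbers pair the libraries could not be settled with so few libraries. Column names of GMP and CFU-E carry the same sample number for a given genotype and replicate, and its meaning is not stated. Each LSK column name ends in a longer number of its own, also without a stated meaning. By that number LSK KO 3 lies next to LSK KO 2 and LSK WT 2, whereas the replicate number pairs it with LSK WT 3. Pairing by the longer number was not tested. Same-number correlations of deviations were -0.115, -0.0769 and -0.174 for the WT populations and 0.0855, 0.0466 and 0.0355 in LSK. They were -0.162, 0.172 and 0.249 in GMP, and 0.202, 0.273 and -0.195 in CFU-E. In each comparison they lay within the range of correlations between different numbers. With the replicate number as a block, 15 members were called between WT CFU-E and WT GMP (median 0.419) and 0 in LSK (0.132), GMP (-0.108), CFU-E (-0.116) and the interaction (0.197). Fen1, Rfc4, Gins2 and Rpa3 had low counts in GMP and CFU-E libraries, where depth limits them. Their means were 4.11, 6.13, 10.3 and 13.97 CPM in GMP WT. In LSK WT, of the other kind of library, they were 277, 131, 91.9 and 73.95 CPM. Lig1 went the other way, at 2146 CPM in GMP WT and 212 CPM in LSK WT. Whether the kind of library or expression gives these low values in GMP and CFU-E was not tested.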
